A study of Mus musculus with 6 samples.

Results

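Kinesins are motor proteins that use ATP to move along microtubules or to take them apart. Some members work in dividing cells, where they build the spindle, position the chromosomes and complete cytokinesis. Others carry vesicles, organelles, RNA and ciliary components through the cell at all times. Genes of the mitotic motors are known for transcription that peaks in the G2 and M phases, whereas most cargo motors are made throughout the cell cycle.

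The kinesin genes were taken from the deposited count table as symbols made of Kif, digits and at most 2 letters. Of the 39 symbols that matched, Kif1bp was left out because it encodes the kinesin-binding protein and not a motor, which left 38 members among 55453 listed symbols. They were divided by known role into 11 mitotic motors, 13 cargo motors and 14 other kinesins. A filter on low counts kept 33 members, namely all 11 mitotic motors, 12 cargo motors and 10 others.

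The libraries were made from poly(A) RNA of the mouse glioma cell line SB28, which the labels place in the C57BL/6 strain, 3 with the genotype PP2A KO (called knockout) and 3 with the genotype Wild Type. PP2Ac is the catalytic subunit of protein phosphatase 2A. The series text instead describes tumours of SB28 in WT and LysMcrePP2Acfl/fl mice, in which Cre driven by the myeloid LysM gene would delete PP2Ac in host cells, so the sources do not settle which cells carried the deletion. No source used here says how many clones a group holds or whether replicates were separate cultures, so p-values may measure a purely technical spread between libraries.

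Ppp2ca was taken here as the targeted gene. It had 217, 187 and 193 CPM (counts scaled to a common library size) in knockout libraries 1, 2 and 3. Wild-type libraries 1, 2 and 3 had 274, 244 and 247 CPM. The log2 fold change of Ppp2ca, knockout over wild type, was -0.36 (SE 0.08, edgeR adjusted p = 0.00377). Exons of genes on the other strand overlap with 41.3% of its exon bases. Whether the gene was deleted was not tested. Library totals ran from 40245915 to 46149908 counts in knockout and from 38735864 to 49344079 in wild type. Of the 8 glioma and glial markers, 6 could be tested. Vim, Nes and Sox2 were abundant and lower in knockout (1880 ± 64.7, 164 ± 11.4 and 78.4 ± 4.39 CPM in knockout, 4790 ± 98.3, 368 ± 20 and 116 ± 1.84 CPM in wild type, SD, n = 3 each). Cspg4 and S100b were also lower (0.127 ± 0.0277 and 0.206 ± 0.0903 CPM in knockout, 8.66 ± 1.35 and 1.07 ± 0.279 CPM in wild type), whereas Pdgfra was higher (49.0 ± 1.52 CPM in knockout, 39.8 ± 1.22 CPM in wild type). Gfap had 10 counts in knockout and 5 in wild type, and Olig2 had none. The 12 myeloid markers summed to between 5.12 and 5.57 CPM in knockout and between 3.35 and 3.73 CPM in wild type, most of it Cd68 (4.43 ± 0.304 CPM in knockout, 3.01 ± 0.28 CPM in wild type), with Adgre1, C1qa, C1qb and Tyrobp at 0. Lyz2, the gene whose promoter LysM-Cre uses, had 44 counts in knockout and 1 in wild type, a ratio of scaled counts of 47.6 in favour of knockout (95% exact counting interval 8.1 to 1920), while Ptprc had 11 counts in knockout and 31 in wild type. The 8 lymphoid markers reached at most 0.128 CPM. The 6 endothelial markers summed to between 419 and 456 CPM in knockout and between 399 and 431 CPM in wild type, nearly all of it Cdh5 (435 ± 21.4 and 415 ± 17.1 CPM), with Kdr higher and Tek lower in knockout and Cldn5 at 0. The part of these markers in the kinesin values was not tested. Libraries numbered 1 stood apart from the others in both groups.

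All 11 mitotic motors fell in the knockout, and the cargo motors divided much as all tested genes did. The median log2 fold change was -0.90 over the mitotic motors, -0.01 over the 12 tested cargo motors, 0.19 over the 10 tested others and -0.01 over all 14877 tested genes. A gene was called when edgeR's quasi-likelihood test gave a p under 0.05 after Benjamini-Hochberg adjustment across the whole tested table. Of the 12 tested cargo motors 3 were called higher, 4 were called lower and 5 did not pass. Over the family 26 of 33 were called, 19 of them lower and 7 higher. Among all tested genes 64.0% were called, 32.1% lower and 31.9% higher. The share called among the cargo motors, 58.3%, was near that of all tested genes. The groups did not overlap in any mitotic motor, always with knockout lower, where 34.4% of tested genes had non-overlapping groups in that direction. Of the cargo motors 5 were lower and 3 higher without overlap, and 33.9% of tested genes were higher in that way. In bulk RNA, fewer dividing cells and less mRNA per dividing cell cannot be told apart.

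**Figure D1:**
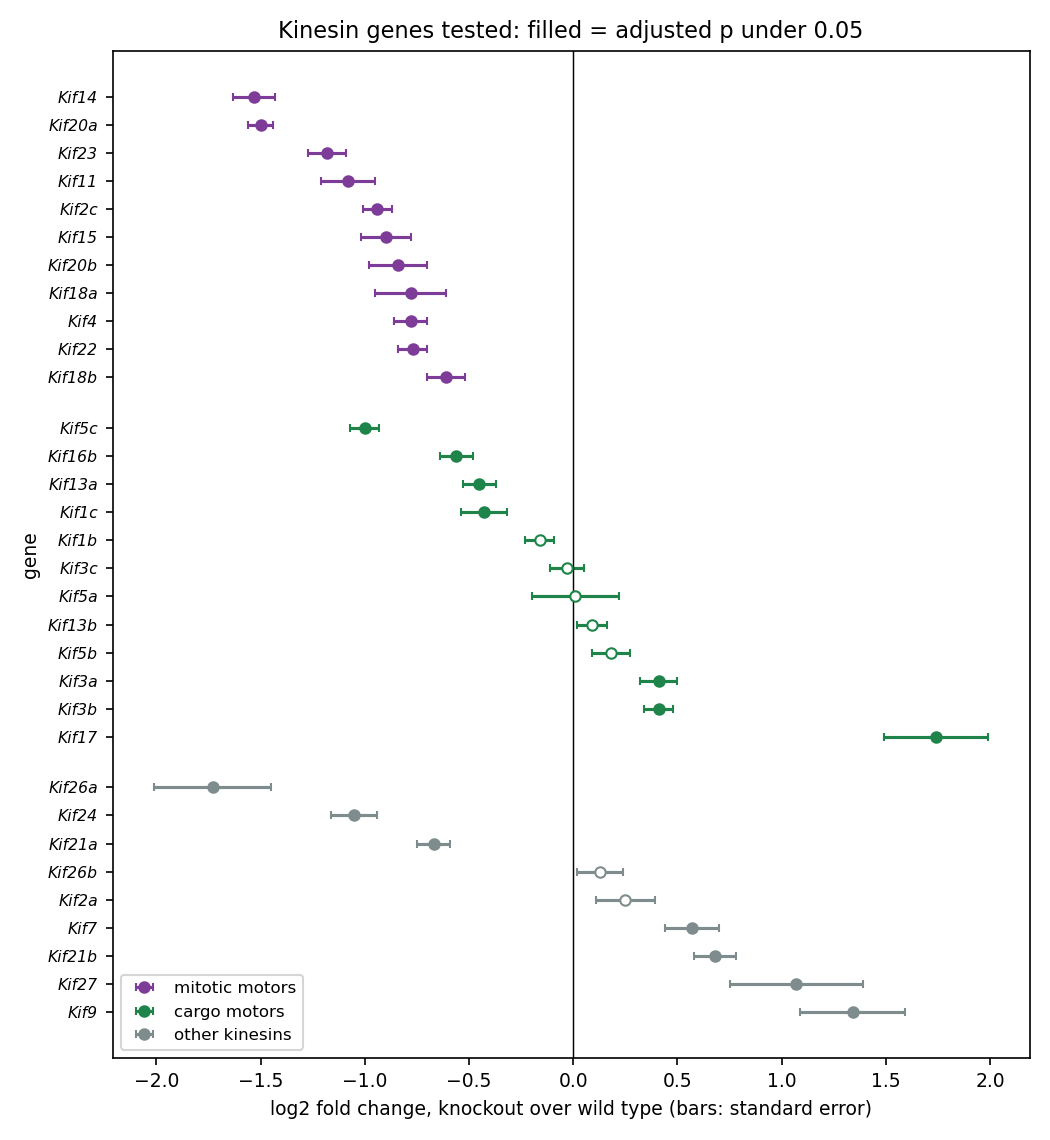
Log2 fold change of knockout over wild type for 32 of the 33 tested kinesin genes, with bars of 1 standard error, grouped by role (Kif19a, with 1 knockout count, is not drawn). Filled points passed the threshold, and all 11 mitotic motors lie left of 0, from -1.53 for Kif14 to -0.61 for Kif18b, whereas cargo motors lie between -1.0 and 1.74.

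Kif14, Kif20a and Kif23, which work in cytokinesis or at the central spindle, had the 3 steepest falls among the mitotic motors. Kif20b and Kif4 also act there but fell less. Kif14, which works with citron kinase at the midbody, had 10.1, 9.88 and 8.28 CPM in knockout and 28.2, 28.3 and 25.4 CPM in wild type, a 2.90-fold lower level (log2 fold change -1.53, SE 0.10, adjusted p = 2.4e-06). Every knockout library was well below every wild-type library. Kif20a, which brings the chromosomal passenger complex to the central spindle, had 54.5, 52.6 and 53.0 CPM in knockout and 155, 148 and 150 CPM in wild type (log2 fold change -1.5, SE 0.06, adjusted p = 1.28e-07). The ratio of same-numbered libraries was almost constant, at 0.352, 0.354 and 0.353. Exons of Cdc23, on the other strand, overlap with 29.3% of the exon bases of Kif20a, and with no strand setting stated for the counting, reads of both genes there cannot be told apart. Kif23, the motor of the centralspindlin complex, had 52.2, 45.4 and 45.3 CPM in knockout and 118, 105 and 102 CPM in wild type (log2 fold change -1.18, SE 0.09, adjusted p = 4.4e-06). Kif20b, a motor of late cytokinesis, had 64.7, 47.1 and 49.3 CPM in knockout and 111, 88.7 and 88.6 CPM in wild type, with library 1 the highest of each group, and its fall was smaller (log2 fold change -0.84, SE 0.14, adjusted p = 0.000622).

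Kif11 and Kif15, which keep the spindle poles apart, both fell. Kif11, the motor that slides antiparallel microtubules to separate the poles, had 54.8, 40.4 and 42.0 CPM in knockout and 109, 88.3 and 93.4 CPM in wild type (log2 fold change -1.08, SE 0.13, adjusted p = 8.43e-05). Kif15, which can take over from Kif11 in holding a bipolar spindle, had 19.7, 15.6 and 17.5 CPM in knockout and 37.1, 30.2 and 30.9 CPM in wild type (log2 fold change -0.90, SE 0.12, adjusted p = 0.000146). In both genes library 1 was the highest of its group, and the knockout libraries all lay below the wild-type ones.

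Of the motors of chromosome movement and microtubule length, Kif2c fell the most and Kif18b the least. Kif2c, a depolymerase that corrects faulty kinetochore attachments, had 29.4, 29.7 and 30.7 CPM in knockout and 57.6, 56.0 and 58.4 CPM in wild type (log2 fold change -0.94, SE 0.07, adjusted p = 3.07e-06). The spread within each group was small beside the gap between them. Kif4, a chromokinesin that also acts with Prc1 in the midzone, had 70.8, 63.9 and 64.3 CPM in knockout and 121, 108 and 111 CPM in wild type (log2 fold change -0.78, SE 0.08, adjusted p = 2.47e-05). Pdzd11, on the other strand, overlaps with 15.1% of the exon bases of Kif4. Kif22, the chromokinesin that pushes chromosome arms from the poles, had 28.7, 31.2 and 32.0 CPM in knockout and 53.7, 50.6 and 51.9 CPM in wild type (log2 fold change -0.77, SE 0.07, adjusted p = 2.15e-05). Kif4 and Kif22, on different chromosomes, fell by nearly the same factor, as did Kif18a. Kif18a, which damps chromosome oscillation at the metaphase plate, had 19.8, 12.6 and 14.3 CPM in knockout and 31.5, 24.6 and 24.1 CPM in wild type, so that knockout 1 came closest to the wild-type range (log2 fold change -0.78, SE 0.17, adjusted p = 0.00356). Kif18b, which limits the length of astral microtubules, had 30.3, 35.9 and 34.9 CPM in knockout and 47.8, 54.4 and 51.9 CPM in wild type, the smallest fall among the 11 (log2 fold change -0.61, SE 0.09, adjusted p = 0.000322).

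**Figure D2:**
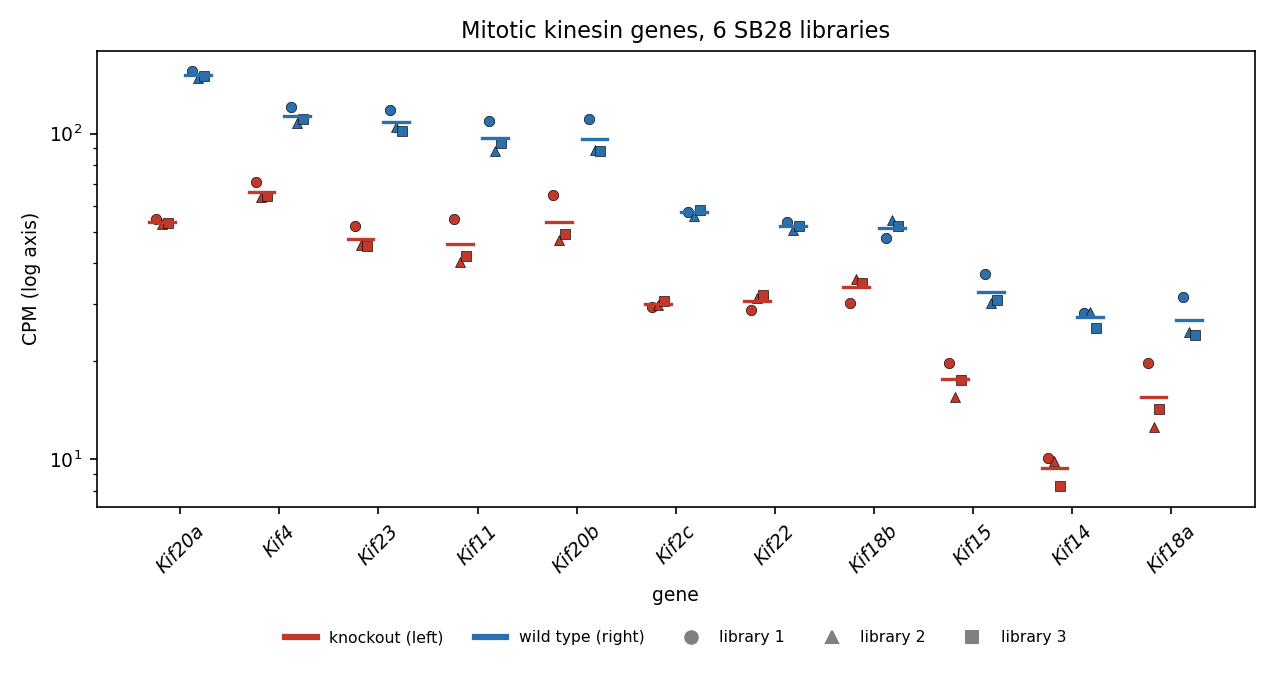
CPM on a log axis of the 11 mitotic motors in each library, knockout to the left and wild type to the right of each gene, with a line at the group mean and a symbol per library number. In every gene the 3 knockout libraries lie below the 3 wild-type libraries, and in 7 of the 11 (Kif4, Kif11, Kif15, Kif18a, Kif20a, Kif20b and Kif23) library 1 is the highest of each group.

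The steepest falls were not extreme among all genes. The log2 fold changes of Kif14 and Kif20a were lower than those of all but 5.66% and 5.85% of tested genes, and that of Kif18b lower than all but 20.2%. Against a fold change of 1.5 (a test of whether the change exceeds that size), 8 of the 11 mitotic motors passed, where 13.2% of tested genes passed in that direction. Kif18a, Kif18b and Kif20b did not. Upward, 2 of the 33 kinesins passed that test, where 13.5% of tested genes did. A fall of at least 2-fold was called in 4 of the 11, against 10.7% of tested genes.

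Promoters of the mitotic motors shared letters that most other promoters lack. RefSeq promoters (GRCm38.p6, 250 bases before to 50 after a start) were found for 31 of the 38 members, 10 of them mitotic motors. They were searched on both strands for TTTGAA and TTCGAA, the letters of the cell cycle homology region, a short element known from promoters of many mitotic genes. A match stood in 9 of 10 mitotic promoters, in 0 of the 9 promoters of tested cargo motors, in 3 of 8 of the tested others and in 16.4% of the promoters of all tested genes. From 60 bases before to 30 bases after the start, a window chosen after the positions were seen, a match stood in 7 of 10 mitotic promoters and in 4.09% of those of all tested genes. The letters CCAAT, searched on both strands and overlapping with no match in a mitotic promoter, were found in 6 of 10 mitotic promoters and in 43.2% of those of all tested genes. The only matches to TTTGAA or TTCGAA in Kif14 and Kif2c lay farther upstream, at positions -228 to -223 and -103 to -98 respectively. Kif20a was the mitotic motor without a promoter in the search. A match describes letters only, and binding was not measured. Positions are counted from RefSeq starts, and starts of other annotations were not searched.

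The sequences below, 100 bases before to 25 after the start and 5′ to 3′ on the gene's strand, show where the match lies, in capitals. In Kif11, Kif15 and Kif22 it lies on the opposite strand and begins 17 to 19 bases before the start.
Kif11 (chr19:37376282-37376406, plus strand): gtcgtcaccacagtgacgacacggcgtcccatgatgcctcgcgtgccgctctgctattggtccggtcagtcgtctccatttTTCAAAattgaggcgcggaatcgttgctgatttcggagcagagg
Kif15 (chr9:122950981-122951105, plus strand): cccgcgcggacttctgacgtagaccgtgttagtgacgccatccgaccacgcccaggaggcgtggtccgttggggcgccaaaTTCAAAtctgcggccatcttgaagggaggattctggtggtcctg
Kif22 (chr7:127042396-127042520, minus strand): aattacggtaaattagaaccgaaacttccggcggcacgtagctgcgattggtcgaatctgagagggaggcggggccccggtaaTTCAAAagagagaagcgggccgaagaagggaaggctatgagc
In Kif18b, Kif23, Kif4 and Kif20b it lies on the gene's strand just after the RefSeq start, and in Kif20b it occurs as adjoining copies. For Kif4 the GENCODE gene start, at 100625737, lies upstream of the whole stretch shown.
Kif18b (chr11:102925100-102925224, minus strand): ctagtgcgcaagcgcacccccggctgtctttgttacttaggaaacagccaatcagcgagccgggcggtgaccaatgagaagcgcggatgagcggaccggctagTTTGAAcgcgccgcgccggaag
Kif23 (chr9:61946775-61946899, minus strand): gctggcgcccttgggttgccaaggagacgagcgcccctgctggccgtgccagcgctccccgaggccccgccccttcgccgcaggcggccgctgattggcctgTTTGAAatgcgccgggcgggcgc
Kif4 (chrX:100625965-100626089, plus strand): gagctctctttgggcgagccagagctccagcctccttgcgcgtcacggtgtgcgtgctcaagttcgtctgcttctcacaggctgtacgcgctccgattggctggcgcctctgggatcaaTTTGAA
Kif20b (chr19:34922258-34922382, plus strand): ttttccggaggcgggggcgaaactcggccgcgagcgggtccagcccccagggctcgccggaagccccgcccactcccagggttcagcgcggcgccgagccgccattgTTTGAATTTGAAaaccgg
Outside the mitotic list, Kif24, which fell, has TTCGAA from 26 bases before the start. Kif26b, which did not pass, has a match at positions -9 to -4, Kif27, which rose, has 3 matches farther upstream, and Kif1a, below the filter, has 1. Kif18a, a mitotic motor, and the cargo motors Kif3a and Kif3b, which rose, are shown as promoters with no match in this stretch or in the longer window.
Kif24 (chr4:41464824-41464948, minus strand): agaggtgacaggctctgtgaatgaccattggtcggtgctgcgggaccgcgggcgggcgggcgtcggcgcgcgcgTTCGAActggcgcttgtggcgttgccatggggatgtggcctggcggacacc
Kif18a (chr2:109280638-109280762, plus strand): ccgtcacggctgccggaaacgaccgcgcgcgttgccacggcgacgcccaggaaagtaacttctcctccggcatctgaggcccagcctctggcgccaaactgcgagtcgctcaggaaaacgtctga
Kif3a (chr11:53567269-53567393, plus strand): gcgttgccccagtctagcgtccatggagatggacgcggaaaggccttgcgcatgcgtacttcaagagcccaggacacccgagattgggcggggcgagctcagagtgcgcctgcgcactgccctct
Kif3b (chr2:153291316-153291440, plus strand): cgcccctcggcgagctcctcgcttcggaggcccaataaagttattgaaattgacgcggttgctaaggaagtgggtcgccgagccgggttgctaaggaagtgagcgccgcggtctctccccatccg

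**Figure D3:**
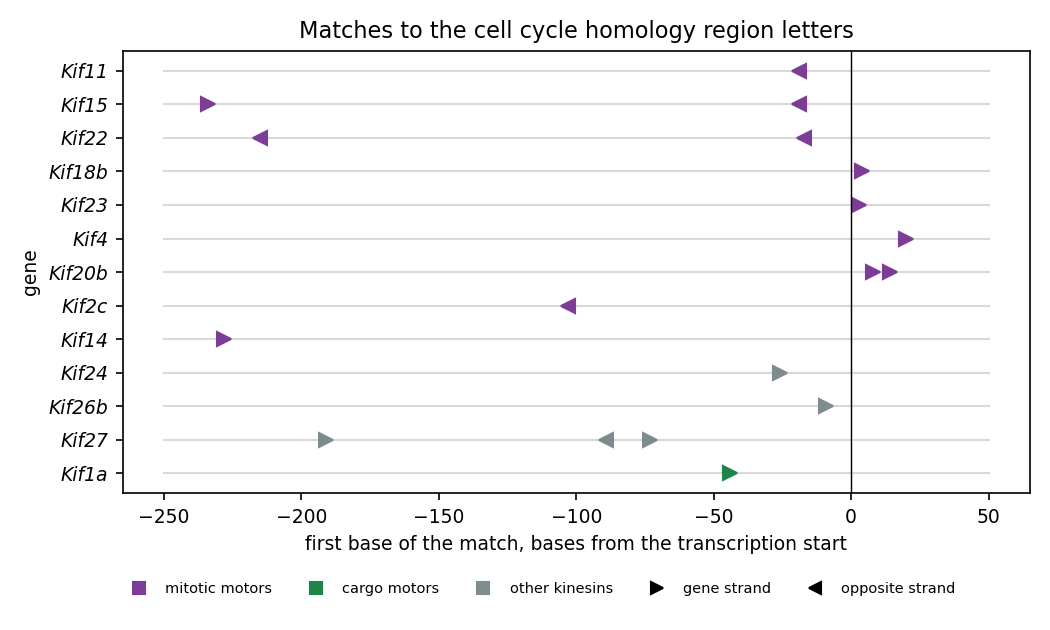
First base of each match to TTTGAA or TTCGAA, in bases from the transcription start, for the 13 kinesin genes with a match in the RefSeq promoter window (grey line). Triangles point right for the gene's strand and left for the opposite strand, and matches of 7 mitotic motors lie from 19 bases before to 20 bases after the start.

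Of the conventional kinesin heavy chain genes among the cargo motors, only Kif5c was called. Kif5b, the heavy chain made in most cells, had 370, 305 and 310 CPM in knockout and 314, 282 and 270 CPM in wild type. The groups overlapped, and the log2 fold change of 0.18 (SE 0.09) did not pass (adjusted p = 0.114). With the replicate number as a block it passed (adjusted p = 0.000258), the 3 ratios of same-numbered libraries being 1.18, 1.08 and 1.15. In that fit 77.3% of all tested genes were called. It also passed without wild type 1 (log2 fold change 0.25, adjusted p = 0.0493) and without both libraries numbered 1 (log2 fold change 0.16, adjusted p = 0.000574). Without both libraries numbered 1, 5588 genes were called higher and 5535 lower of 14906 tested, against 4752 and 4773 of 14877 with all libraries. Kif5c, a heavy chain known mostly from neurons, had 21.4, 21.4 and 20.7 CPM in knockout and 41.8, 42.6 and 42.7 CPM in wild type (log2 fold change -1.0, SE 0.07, adjusted p = 2.55e-06). It was 2.0-fold lower in knockout, with very little spread. Kif5a, the other neuronal heavy chain, was rare, at 1.66, 2.20 and 2.38 CPM in knockout and 1.90, 2.59 and 1.66 CPM in wild type (log2 fold change 0.01, SE 0.21, adjusted p = 0.962). The 8 neuron markers summed to between 1.12 and 1.35 CPM in knockout and between 2.56 and 3.47 CPM in wild type, with 2 of the 3 tested members lower, 1 not called and Rbfox3 at 0. Their part in the value of Kif5c was not tested.

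The kinesin-2 motors, which drive intraflagellar transport and carry vesicles, included all 3 cargo motors that rose. Kif3a had 74.2, 65.1 and 64.1 CPM in knockout and 55.8, 49.1 and 48.6 CPM in wild type (log2 fold change 0.41, SE 0.09, adjusted p = 0.00309). Kif3b, its usual partner in the heterotrimeric motor, had 72.6, 66.6 and 67.9 CPM in knockout and 54.4, 51.8 and 50.2 CPM in wild type (log2 fold change 0.41, SE 0.07, adjusted p = 0.000821). The partners had equal fold changes, and neither passed against a fold change of 1.5. Per kilobase of exon Kif3a was the more abundant, with means of 18.9 CPM per kb in knockout and 14.3 in wild type, where Kif3b had 12.3 in knockout and 9.25 in wild type. Kif17, a homodimeric kinesin-2 known from neurons and cilia, was rare, at 1.55, 2.44 and 1.87 CPM in knockout and 0.470, 0.544 and 0.755 CPM in wild type (log2 fold change 1.74, SE 0.25, adjusted p = 0.000303). It had the highest fold change of all tested kinesins on 242 counts in knockout and 78 in wild type. Kif3c, an alternative partner of Kif3a, had 38.7, 42.0 and 41.2 CPM in knockout and 38.7, 44.7 and 40.9 CPM in wild type (log2 fold change -0.03, SE 0.08, adjusted p = 0.78), and 40.7% of its exon bases lie under exons of genes of the other strand. Kifap3, the third subunit of the heterotrimer and not a member, had 41.8 ± 5.49 CPM in knockout and 47.6 ± 4.92 CPM in wild type (SD, n = 3 each), a log2 fold change of -0.19 (adjusted p = 0.167, or 0.000807 with the replicate block). It also passed without knockout 1 (adjusted p = 0.0203) and without both libraries numbered 1 (adjusted p = 0.000709).

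The kinesin-3 motors, carriers of vesicles and endosomes, were lower or did not pass. Kif16b, which moves early endosomes, had 27.8, 23.9 and 26.4 CPM in knockout and 39.9, 38.4 and 36.9 CPM in wild type (log2 fold change -0.56, SE 0.08, adjusted p = 0.000308). Kif13a, which carries recycling endosomes, had 32.5, 31.1 and 35.5 CPM in knockout and 43.0, 45.9 and 46 CPM in wild type (log2 fold change -0.45, SE 0.08, adjusted p = 0.000883). Its groups did not overlap. Its paralog Kif13b had 34.8, 36.8 and 36.1 CPM in knockout and 32.3, 33.5 and 35.6 CPM in wild type, with groups that overlapped (log2 fold change 0.09, SE 0.07, adjusted p = 0.322). Kif1c, a vesicle and mRNA carrier, had 183, 231 and 229 CPM in knockout and 251, 311 and 301 CPM in wild type (log2 fold change -0.43, SE 0.11, adjusted p = 0.00953). Library 1 was the lowest of each group in Kif1c, the reverse of Kif5b. Kif1b, which carries mitochondria and synaptic vesicle precursors, had 103, 94.3 and 91.2 CPM in knockout and 112, 107 and 104 CPM in wild type (log2 fold change -0.16, SE 0.07, adjusted p = 0.085). It passed with the replicate block (adjusted p = 0.00079), without knockout 1 (log2 fold change -0.20, adjusted p = 0.0246), without both libraries numbered 1 (-0.18, adjusted p = 0.000356) and with upper-quartile scaling (-0.22, adjusted p = 0.0227). Kif1a, a motor of synaptic vesicle precursors in neurons, was below the filter with 18 counts in knockout and 20 in wild type.

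**Figure D4:**
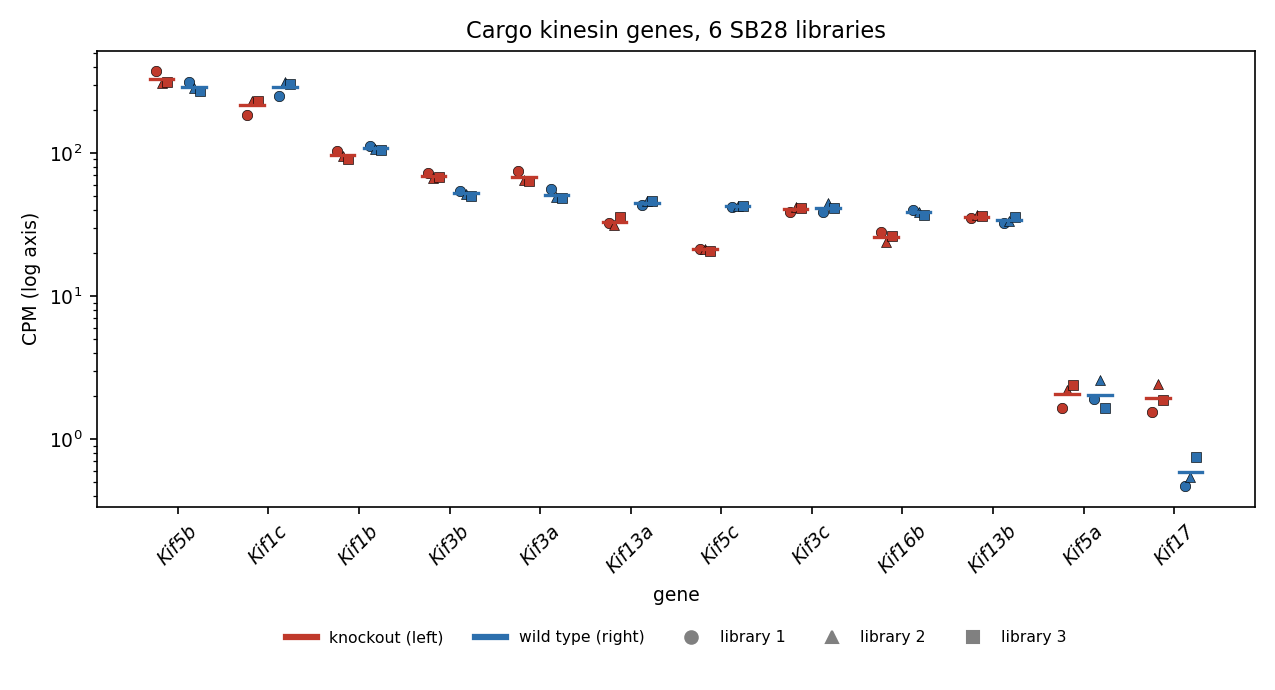
CPM on a log axis of the 12 tested cargo motors in each library, knockout to the left and wild type to the right of each gene, with a line at the group mean. Kif5c, Kif13a, Kif16b, Kif1c and Kif1b are lower and Kif3a, Kif3b and Kif17 are higher in all knockout libraries. The groups overlap in Kif5b, Kif3c, Kif13b and Kif5a.

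Of the 10 tested other kinesins 4 rose, 4 fell and 2 did not pass, where 31.9% of all tested genes rose and 32.1% fell. Kif24, a depolymerase of centriolar microtubules that restrains cilium formation, fell to 6.67 ± 0.843 CPM in knockout, against 13.8 ± 0.496 CPM in wild type (log2 fold change -1.05, SE 0.11, adjusted p = 3.96e-05). Kif21a, which slows microtubule growth at the cell cortex, fell to 50.9 ± 4.55 CPM, against 81.2 ± 3.86 CPM in wild type (log2 fold change -0.67, adjusted p = 0.000104), whereas its paralog Kif21b rose to 19.2 ± 1.48 CPM, against 12.0 ± 1.14 CPM (log2 fold change 0.68, adjusted p = 0.000403). Kif26a, a divergent kinesin that lacks motor activity, had 0.941, 2.22 and 1.61 CPM in knockout and 4.19, 6.60 and 4.93 CPM in wild type (log2 fold change -1.73, SE 0.28, adjusted p = 0.0006). Its paralog Kif26b did not pass, at 9.42 ± 0.637 CPM in knockout and 8.59 ± 1.01 CPM in wild type (adjusted p = 0.327). Kif2a, a depolymerase of interphase and spindle microtubules, had 189, 136 and 138 CPM in knockout and 148, 121 and 121 CPM in wild type (log2 fold change 0.25, SE 0.14, adjusted p = 0.146). Library 1 was again the highest of each group, and Kif2a passed with the replicate block (adjusted p = 7.45e-05), without both libraries numbered 1 (log2 fold change 0.18, adjusted p = 0.000118) and with no filter (adjusted p = 0.026). Exons of Dimt1 on the other strand overlap with 19.2% of its exon bases.

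Among the other kinesins, Kif7, Kif9 and Kif27 rose and Kif19a fell. Kif7, a regulator of Hedgehog signalling at the cilium tip, rose to 4.50 ± 0.477 CPM in knockout, against 3.02 ± 0.203 CPM in wild type (log2 fold change 0.57, adjusted p = 0.00355), and 20.3% of its exon bases lie under exons of genes of the other strand. Kif9, a motor of motile cilia, rose to 1.07 ± 0.201 CPM, against 0.415 ± 0.0911 CPM (log2 fold change 1.34, adjusted p = 0.00142). Kif27, a paralog of Kif7, had 51 counts in knockout and 26 in wild type (log2 fold change 1.07, adjusted p = 0.0166) and lost its call without knockout 1 (0.86, adjusted p = 0.0692), without wild type 2 (0.96, adjusted p = 0.0591) and without both libraries numbered 1 (0.96, adjusted p = 0.0758). Kif19a, which controls ciliary length, had 1 count in knockout and 43 in wild type, a ratio of scaled counts of 39.8 in favour of wild type (95% exact counting interval 6.77 to 1610, counting error only). Kif6 had 19 and 25 counts and Kif28 had 1 and 2 counts in knockout and wild type, both below the filter. Kif12 and Kif2b had 0 counts in all 6 libraries, which allows up to 0.0766 CPM in knockout 3, the library with the smallest scaled total.

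Per kilobase of annotated exon, the only scale here on which genes are compared with each other, the make-up of the family shifted. In wild type Kif1c, Kif5b and Kif20a led with mean levels of 39.6, 36.2 and 34.9 CPM per kb, while in knockout Kif5b, Kif1c and Kif2a led with 41.2, 29.5 and 24.1 CPM per kb and Kif20a stood at 12.3 CPM per kb. Among wild-type libraries the order of Kif5b, Kif1c and Kif20a changed from library to library, so these neighbours did not differ beyond their spread there. In knockout 1 Kif2a stood above Kif1c, at 29.6 and 25.1 CPM per kb, the reverse of the other knockout libraries, so that order was not stable either. The mitotic motors together had 74.5, 68.5 and 69.5 CPM per kb in knockout and 150, 138 and 139 CPM per kb in wild type. They made up 30.3% ± 0.113 of the family's summed level in knockout and 45.9% ± 0.932 in wild type (SD, n = 3 each). The cargo motors together had 129, 124 and 125 CPM per kb in knockout and 129, 132 and 128 CPM per kb in wild type, ranges that overlap. The mean log2 CPM of mitotic minus cargo motors was -0.01, -0.23 and -0.20 in knockout and 0.99, 0.77 and 0.81 in wild type, and library 1 was the highest of each group.

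**Figure D5:**
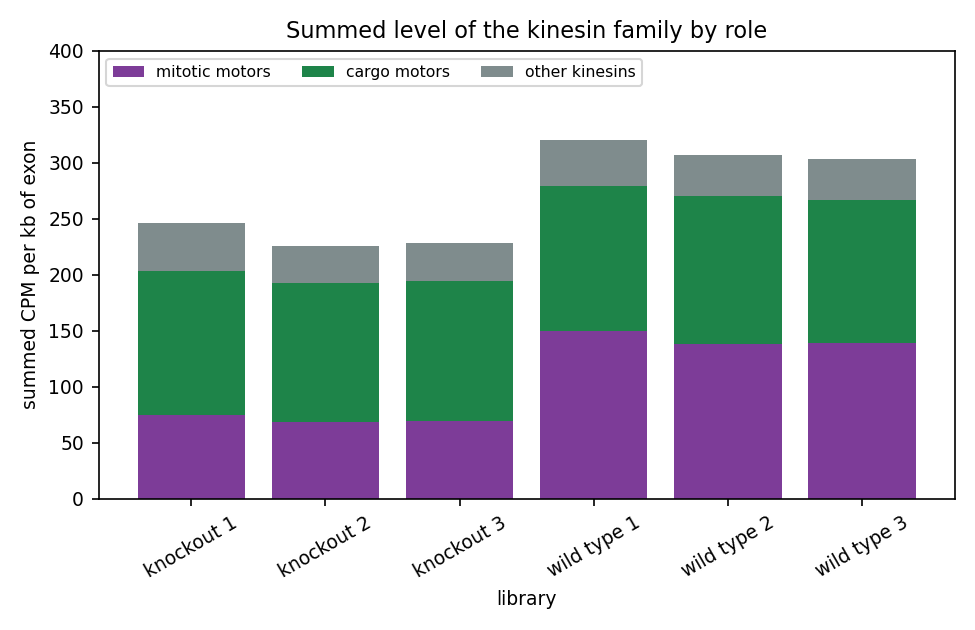
Summed CPM per kilobase of exon of all 38 kinesin genes in each library, stacked by role, the 3 knockout libraries left of the 3 wild-type libraries. The mitotic part is between 68.5 and 74.5 in knockout and between 138 and 150 in wild type, while the cargo part lies between 124 and 132 in all 6 libraries.

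For 8 pairs of paralogs the log2 ratio of CPM was compared, and in 5 of them the groups did not overlap. Of single tested genes 68.3% had groups that did not overlap, in one direction or the other. The share over ratios of other gene pairs was not computed, so the count alone does not set these pairs apart. The log2 ratio of Kif5c over Kif5b was -4.11, -3.83 and -3.90 in knockout and -2.91, -2.73 and -2.66 in wild type. That of Kif21a over Kif21b was 1.63, 1.18 and 1.40 in knockout and 2.98, 2.58 and 2.7 in wild type. Kif26a over Kif26b was -3.20, -2.17 and -2.46 in knockout and -0.82, -0.47 and -0.89 in wild type, and Kif20a over Kif20b and Kif13a over Kif13b were lower in knockout by 0.66 and 0.53 on the same scale. For these 5 pairs the two-sided exact permutation p was 0.1, the smallest that 3 against 3 libraries allow, or 0.16 adjusted over the 8 pairs. Kif3a over Kif3b ranged from -0.08 to 0.03 in knockout and from -0.08 to 0.04 in wild type, with p = 1 by the same exact test, and Kif18a over Kif18b (exact p = 0.5) and Kif1c over Kif1b (exact p = 0.3) overlapped between the groups.

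Partners of the mitotic motors fell with them. Of 20 tested spindle and cytokinesis partners and proliferation markers 19 fell, 0 rose and 1 did not pass, with a median log2 fold change of -1.02, where 32.1% of all tested genes fell. Aurkb, the kinase of the chromosomal passenger complex, had 12.2 ± 0.63 CPM in knockout and 52.8 ± 0.858 CPM in wild type (SD, n = 3 each; log2 fold change -2.11, SE 0.08, adjusted p = 6.28e-08). Mki67, a marker of cycling cells, had 103, 83.7 and 86.9 CPM in knockout and 338, 308 and 302 CPM in wild type (log2 fold change -1.79, SE 0.09, adjusted p = 5.36e-07). Racgap1, which binds Kif23 in centralspindlin, fell by 1.10 on the log2 scale (adjusted p = 8.76e-07), and the mitotic kinase gene Plk1 by 1.61 (adjusted p = 9.72e-07). The mitotic motors outside the naming rule moved likewise: Cenpe, the kinetochore kinesin, had 113, 88.5 and 88.6 CPM in knockout and 205, 171 and 167 CPM in wild type (log2 fold change -0.90, adjusted p = 0.000175), and Kifc1, a minus-end motor that bundles spindle poles, had 21.8, 32.2 and 32.2 CPM in knockout and 55.9, 68.9 and 66.1 CPM in wild type (log2 fold change -1.15, adjusted p = 0.000174). Reads of Kifc1 and its near copy Kifc5b, which was also lower (log2 fold change -0.84, adjusted p = 0.00102), may have been split between them.

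Partners of the cargo motors were called in both directions. The share called was 42.9% of the intraflagellar transport genes and 65.4% of the dynein and dynactin genes, against 64.0% of all tested genes. It was 50% of a list that joins light chains and adaptors with kinesins outside the naming rule, Cenpe and Kifc1 included. Among 18 tested light chains, adaptors and kinesins outside the naming rule 2 rose, 7 fell and 9 did not pass (median log2 fold change -0.11), Cenpe, Kifc1 and Kifc5b being among those that fell. Sh3bp5l, whose place on this list was not checked against known kinesin partners, also fell. It had 21.3 ± 3.76 CPM in knockout, against 38.1 ± 3.82 CPM in wild type (edgeR adjusted p = 0.000592). Kif1bp, which holds certain kinesins inactive, had 40.6 ± 1.95 CPM in knockout and 39.7 ± 1.08 CPM in wild type (adjusted p = 0.695). Of 14 tested intraflagellar transport genes, whose proteins form the trains that kinesin-2 pulls, 3 rose, 3 fell and 8 did not pass (median 0.06). Ift122, Ift27 and Ift140 fell by 0.77, 0.80 and 0.79 on the log2 scale (adjusted p = 2.58e-05, 0.000166 and 0.000245), and Ift172 rose by 0.52 (adjusted p = 0.000703). Of 26 tested genes of dynein and dynactin, the motor of the opposite direction, 8 rose, 9 fell and 9 did not pass (median 0.04). Dync1i1, a dynein intermediate chain known mainly from neurons, fell to 0.978 ± 0.359 CPM in knockout, against 8.89 ± 0.747 CPM in wild type (adjusted p = 2.32e-06), and the adaptor gene Bicd1 fell to 1.58 ± 0.0604 CPM, against 5.46 ± 0.864 CPM (adjusted p = 1.11e-05). Ndel1, a dynein regulator, rose to 194 ± 4.12 CPM, against 106 ± 3.94 CPM (adjusted p = 3.58e-06), and the light intermediate chain gene Dync1li1 to 127 ± 6.40 CPM, against 76.3 ± 2.57 CPM (adjusted p = 1.8e-05).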

How the data were processed

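The authors' deposited table gives raw read counts per gene symbol in 6 libraries, which were matched to samples by title (0 columns were left over). The submitters' processing notes name the aligner STAR 2.7.1a and the counter HTSeq 0.11.2, besides fastp 0.20.0, limma 3.48.3 and edgeR 3.34.0, with the builds mm10 and GRCm38, without saying how each was used; neither the annotation release nor a strand setting is given there. Genes were kept by filterByExpr (14877 of 55453), scaled by TMM and compared with the quasi-likelihood test of edgeR 4.0.16 in R 4.3.3, with Benjamini-Hochberg adjustment over all tested genes and a threshold of 0.05. The method was also run on simulated counts with few changed genes and independent libraries. That run does not cover the many called genes or the replicate differences seen here. CPM are scaled counts, given with SD over n = 3; log2 CPM used a prior count of 2. Standard errors were derived from the F statistic. Positions, exon lengths and overlaps are from GENCODE M21 (GRCm38) by symbol; length is the union of annotated exons, not that of the transcripts present. Counting intervals cover counting error only, since reads carry no molecular identifiers.

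The members, role lists, partner lists and tests were chosen with earlier results of these data known. All members are accounted for; from each partner list up to 4 genes with the smallest adjusted p are named, besides Ppp2ca, Cenpe, Kifc1, Kif1bp and Kifap3. Replicates differed beyond sampling noise (chi-square per degree of freedom from 3.41 to 48.41). Deviations from the group means correlated between same-numbered libraries (r across genes = 0.443, 0.161 and 0.15). Knockout 2 correlated slightly better with wild type 3 (0.189), and knockout 3 equally well with wild type 2 (0.15). Only the libraries numbered 1 stood apart as a pair, and pairing of libraries 2 and 3 by number was not shown. The main fit used group only. The replicate number, taken from the titles, entered as a block only in an alternative fit. Alternatives were other scalings, no filter, DESeq2 1.42.0, the replicate block, leaving out libraries, a test against a fold change of 1.5 and other role lists. A planned protein comparison was not made, as no protein table was used here.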

Additional observations from a re-analysis of the deposited data

How the results depend on the processing

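The count of 11 mitotic motors lower held under every scaling, filter, tool, replicate block and left-out library tried; against a fold change of 1.5 it was 8. That test also left 2 kinesins higher and 12 lower (1 and 1 among cargo motors, 1 higher among the others), 2009 genes higher and 1957 lower over the whole table, and no call for Ppp2ca (log2 fold change -0.36). With the replicate block 20 kinesins were lower and 9 higher, against 19 and 7 without it, while the whole table had 5721 genes higher and 5774 lower, against 4752 and 4773; Kif1b, Kif2a and Kif5b gained a call, and no other kinesin's call changed. The median log2 fold change of the cargo motors had no stable sign: it was -0.07 with upper-quartile factors, 0.02 without both libraries numbered 1 and from -0.08 to 0.06 when 1 library was left out. That of the mitotic motors ran from -0.98 to -0.79 when 1 library was left out, and the difference between the medians from -1.04 to -0.73. This difference was -0.61 with Kif3a, Kif3b, Kif3c and Kif17 left out of the cargo list, by construction of the list, and -0.89 with Kif2a and Kif24 counted as mitotic and Kif21a and Kif21b as cargo. The cause of the other shifts was not tested. Of the 33 tested kinesins, 18 kept their call under all 13 alternatives, and 16 of these also their sign; Kif3c and Kif5a, never called, changed sign. Upper-quartile scaling moved the whole-table split to 4298 higher and 5296 lower. Depth limits Kif1a, Kif6, Kif12, Kif19a, Kif27, Kif28 and Kif2b.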

Other observations

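Genes of tubulin, the track on which kinesins move, were mostly lower in the knockout. Of 13 tested tubulin genes 9 fell, 1 rose and 3 did not pass, with a median log2 fold change of -1.14 against -0.01 over all tested genes, of which 32.1% fell and 31.9% rose. Tuba1a fell to 110 ± 6.77 CPM in knockout, against 299 ± 15.2 CPM in wild type (SD, n = 3 each; edgeR adjusted p = 4.57e-07), and Tubb4b to 110 ± 13 CPM, against 279 ± 15.7 CPM (edgeR adjusted p = 3.37e-06). Tubb2b fell to 32.8 ± 4.74 CPM, against 76.9 ± 6.88 CPM (edgeR adjusted p = 2.04e-05). Reads of these similar genes may have been shared or dropped. Tubg2, one of the gamma tubulin genes, had 2 counts in knockout and 424 in wild type, a ratio of scaled counts of 196 in favour of wild type (95% exact counting interval 53.9 to 1620).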
